A study of Homo sapiens with 16 samples.

Results

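The transcriptional response to AU-15330, a PROTAC degrader of the mSWI/SNF ATPases SMARCA2 and SMARCA4 and of PBRM1, was compared gene by gene between NCI-H526 and NCI-H1048, a pair of small cell lung cancer (SCLC) lines of the tuft-cell subtype SCLC-P. The response difference was the log2 change under AU-15330 in NCI-H526 minus the log2 change in NCI-H1048, so a positive value means that a gene fell less or rose more in NCI-H526, and a negative value that it fell more or rose less there. It was tested in 12544 of the 35606 genes of the deposited table, those with a mean of at least 1 CPM in both lines, and 1141 further genes reached that level in NCI-H526 only and 1147 in NCI-H1048 only. The 8 libraries were 2 of NCI-H526 with DMSO, 2 of NCI-H526 with AU-15330, 2 of NCI-H1048 with DMSO and 2 of NCI-H1048 with AU-15330, out of 16 libraries in the series. Both are established human SCLC lines grown in culture with no engineered allele given in the labels, AU-15330 was used at 1 µM, and DMSO, its solvent, was the control in both. The titles of all 8 libraries give 24 h, the treatment protocol 12 to 24 h and the series design 4 to 12 h; no source gives the lines different times, and the length is not settled. Each line stands as 1 model of its subtype, and differences between NCI-H526 and NCI-H1048 are differences between these lines.

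The mSWI/SNF complexes slide and evict nucleosomes and keep enhancers open for transcription factors. SCLC-P cells resemble tuft cells, chemosensory epithelial cells, and depend on the POU-domain factor POU2F3, which binds octamer motifs with its coactivators POU2AF2 and POU2AF3. Other SCLC subtypes are marked by factors such as NEUROD1 and YAP1, and most of it is neuroendocrine. The MYC family drives growth and ribosome synthesis in SCLC, with MYC itself, MYCN or MYCL as the member in use differing between tumours.

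The libraries carried the marks of their labels. POU2F3 averaged 764 CPM over the 4 NCI-H526 libraries and 301 CPM over the 4 of NCI-H1048, while NEUROD1 averaged 1.87 and 0.174 CPM. YAP1, the factor of another SCLC subtype, averaged 3.01 CPM in NCI-H526 and 85.7 CPM in NCI-H1048. The summed level of 23 markers of blood, endothelial, fibroblast, smooth muscle, liver, airway and red cells was 6.58 to 12.3 CPM per library in NCI-H526 and 34.9 to 58.6 CPM in NCI-H1048, where COL1A1 averaged 30.6 CPM, and none of the 23 reached a mean of 1 CPM in both lines. The B cell marker MS4A1 and the T cell marker CD3E averaged 0 CPM in NCI-H526, and CD3E was at 0 in all 8 libraries. From the smallest steps between low values, 1 CPM stood for an estimated 31.5 to 43.0 reads per library in NCI-H526 and 33.3 to 39.2 in NCI-H1048. Replicates were closer in NCI-H526, with a median within-group SD of 0.056 on the log2 scale against 0.098 in NCI-H1048, and the AU-15330 pair of NCI-H1048 lay farthest apart, at a median absolute difference of 0.144 between its 2 libraries. In such bulk RNA, a change in the level per cell and a change in the share of cells that carry a transcript cannot be told apart.

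The response difference passed the test in 3623 genes (28.9% of those tested; limma, Benjamini-Hochberg adjusted p under 0.05), of which 1680 (13.4%) were higher in NCI-H526 and 1943 (15.5%) lower. Lower differences made up 53.6% of the called genes on the deposited scale and 43.4% after scaling each library to its total, so the balance of directions depends on the scaling. A difference of at least 2-fold was called in 601 genes (4.79%), 290 higher (2.31%) and 311 lower (2.48%) in NCI-H526. In 524 genes (4.18%) both lines changed and did so in opposite directions, 284 of them rising in NCI-H526 while falling in NCI-H1048 and 240 the other way. Within the lines, 3964 genes rose (29% of 13685) and 4077 fell (29.8%) in NCI-H526, against 2320 that rose (16.9% of 13691) and 2488 that fell (18.2%) in NCI-H1048. Each line was tested against its own replicate spread, larger in NCI-H1048, so these counts do not compare the size of the responses. Over the genes tested in both lines, the median absolute log2 change was 0.217 in NCI-H526 and 0.215 in NCI-H1048, and the 90th percentile was 0.759 and 0.624. Absolute changes include the replicate spread, so equal medians do not show responses of equal size. With 1 fit of all 16 libraries, 5943 genes were called in NCI-H526 and 5694 in NCI-H1048. Without AU-15330 replicate 2 of NCI-H1048, 5433 differences were called, 2593 of them higher, and 971 genes were called in opposite directions, and NCI-H1048 alone gave 6503 calls in place of 4808. Without DMSO replicate 1 or 2 of NCI-H526 the differences called numbered 2389 and 2303, and without DMSO replicate 1 or 2 of NCI-H1048 the opposite directions fell to 240 and 239 genes and the calls within NCI-H1048 to 2248 and 2653. The 2-fold count moved less, between 593 and 722 over the 8 libraries left out in turn.

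Most of the called differences were in genes called in 1 line only. Which line had the call depends in part on the replicate spread within each line, which was larger in NCI-H1048. Among the 3623, 942 fell in NCI-H526 and were not called in NCI-H1048, 718 rose in NCI-H526 and were not called in NCI-H1048, and 344 fell and 335 rose in NCI-H1048 without a call in NCI-H526. A shared direction with an unequal size was found in 670 genes: 269 fell in both lines and more in NCI-H526, 209 fell more in NCI-H1048, 81 rose more in NCI-H526 and 111 rose more in NCI-H1048. The remaining 90 were called in neither line. Over all genes tested, the median absolute difference was 0.23 on the log2 scale with a median SE of 0.12, and for 5574 genes (44.4%) the 95% interval of the difference lay within -0.5 to 0.5.

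**Figure D1:**
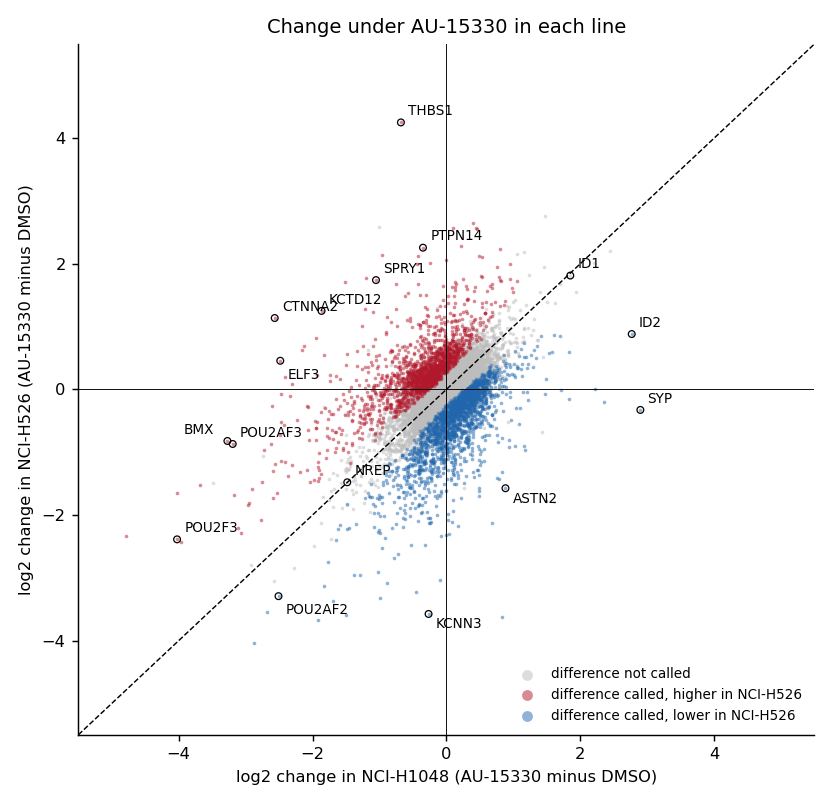
Log2 change under AU-15330 in NCI-H1048 (horizontal axis) against that in NCI-H526 (vertical axis), 1 point per gene tested in both lines, coloured by the call of the response difference; the dashed line marks equal change, circles mark named genes, and members of the sterol list other than MVK, MVD and FDPS are not drawn. CTNNA2, KCTD12 and SPRY1 sit at upper left, higher in NCI-H526 and lower in NCI-H1048 under treatment, ASTN2 and SYP at lower right, and NREP and ID1 on the line of equal change.

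POU2F3 and its coactivators fell in both lines and by different amounts. POU2F3 lies at chr11:120236640-120319945 (GRCh38, as are the gene positions below, from GENCODE release 44), with POU2AF2 at chr11:111245725-111286401 and POU2AF3 at chr11:111298546-111308735, beside each other on the same chromosome. POU2F3 measured 1280.2 and 1287 CPM with DMSO and 247 and 242 CPM with AU-15330 in NCI-H526, and 600.0 and 534 CPM with DMSO and 35.5 and 33.1 CPM with AU-15330 in NCI-H1048. All treated libraries lay below all DMSO libraries of their line, and the treated NCI-H526 level was still several times that of treated NCI-H1048. The log2 change was -2.39 ± 0.041 (SE) in NCI-H526 and -4.02 ± 0.10 in NCI-H1048, a difference of 1.64 ± 0.10 or 3.11-fold (limma adjusted p = 1e-06). Here and below, the value after ± is the SE from limma, over 2 libraries per group. POU2AF3 had the greatest difference of the 5 family members tested, with 9.6 and 10.7 CPM with DMSO and 5.11 and 5.56 CPM with AU-15330 in NCI-H526, and 252 and 253 CPM with DMSO and 27.3 and 26.9 CPM with AU-15330 in NCI-H1048. Its untreated level was higher in NCI-H1048, where its log2 change was -3.19 ± 0.10 against -0.87 ± 0.10 in NCI-H526 (difference 2.32 ± 0.12, adjusted p = 2.4e-07). POU2AF2 differed in the opposite direction: it measured 191 and 189 CPM with DMSO and 19.3 and 18.6 CPM with AU-15330 in NCI-H526, and 20.1 and 19.4 CPM with DMSO and 3.57 and 2.6 CPM with AU-15330 in NCI-H1048, and fell more in NCI-H526, where its untreated level was higher, than in NCI-H1048 (-3.29 ± 0.045 and -2.51 ± 0.15; difference -0.78 ± 0.16, adjusted p = 0.0033). For both coactivators, then, the line with the higher untreated level had the greater fall, and for POU2F3 it was the line with the lower one.

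The other POU2F genes had smaller differences. POU2AF1, the coactivator of B cells, fell in NCI-H526 (-0.62 ± 0.15) with a change of 0.061 ± 0.15 in NCI-H1048, at a difference of -0.68 ± 0.23 with an adjusted p of 0.044. That call was lost under 12 alternative settings, with adjusted p from 0.051 to 0.18. The ubiquitous octamer factor POU2F1 had a difference of 0.11 ± 0.11, with a 95% interval from -0.14 to 0.35. POU2F2 was tested in NCI-H526 alone, where its change was -0.083 ± 0.17.

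Most tuft cell genes fell in both lines, and they were split over which line lost more. Of 40 genes on the tuft cell list, 27 were tested in both lines, 9 in NCI-H526 only and 1 in NCI-H1048 only. Of the 27, 23 fell in NCI-H526 (85.2%, against 28.9% of all genes tested) and 25 in NCI-H1048 (92.6%, against 17%). The difference was called higher in NCI-H526 for 11 (40.7%, against 13.4% of all genes tested) and lower for 8 (29.6%, against 15.5%), with a median of 0.29. Those shares of all genes tested, 13.4% higher and 15.5% lower, are the reference for every list count below. Calls over all genes tested also moved when 1 library was left out. Counts of list members without 1 library, here and below, thus show stability only and have no share of all genes beside them. Leaving out any 1 library gave 8 to 12 higher and 7 to 9 lower.

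The members with a higher difference, those that fell less or rose in NCI-H526, included a kinase, a cytoskeletal protein and several transcription factors. BMX, a TEC-family tyrosine kinase, measured 515 and 522 CPM with DMSO and 284 and 303 CPM with AU-15330 in NCI-H526, and 14.3 and 15.8 CPM with DMSO and 1.02 and 1.21 CPM with AU-15330 in NCI-H1048. It fell 1.77-fold in NCI-H526 and 9.66-fold in NCI-H1048, a difference of 2.45 ± 0.12 (adjusted p = 1.7e-07). AVIL, an actin-binding protein of the villin family used as a tuft cell marker, went from 794 and 796 CPM to 397 and 413 CPM in NCI-H526 and from 104 and 99.3 CPM to 14.8 and 14.9 CPM in NCI-H1048, with a difference of 1.76 ± 0.084. GFI1B, a zinc finger repressor of tuft and erythroid cells, rose in NCI-H526 and fell in NCI-H1048, with 85.5 and 88.4 CPM with DMSO and 124 and 132 CPM with AU-15330 in NCI-H526, and 43.1 and 42.8 CPM with DMSO and 19 and 18.4 CPM with AU-15330 in NCI-H1048; the groups did not overlap in either line, and the difference was 1.74 ± 0.095 (adjusted p = 5e-07). MYB, the proto-oncogene transcription factor, went from 1390.2 and 1428 CPM to 1524 and 1611 CPM in NCI-H526 and from 163 and 168 CPM to 60.9 and 67.8 CPM in NCI-H1048, for a difference of 1.51 ± 0.10; its fall in NCI-H1048 passed the test throughout, while its rise in NCI-H526 (0.15 ± 0.054) lost the call under 5 alternatives (adjusted p from 0.073 to 0.44), among them leaving out either DMSO replicate of NCI-H526. SOX9, a factor of epithelial progenitors, fell in both lines, with log2 changes of -0.80 in NCI-H526 and -2.05 in NCI-H1048 (difference 1.25 ± 0.084). ALOX5, which starts leukotriene synthesis, differed by 1.26 ± 0.20, from a low level of 16.3 and 21.2 CPM in untreated NCI-H526.

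The members that fell more in NCI-H526 included ASCL2, DCLK1 and PLA2G4A. ASCL2, a basic helix-loop-helix factor of intestinal stem cells and of tuft-like SCLC, measured 83.4 and 86.3 CPM with DMSO and 22.6 and 22.3 CPM with AU-15330 in NCI-H526, and 9.97 and 10.2 CPM with DMSO and 7.26 and 6.3 CPM with AU-15330 in NCI-H1048, a difference of -1.35 ± 0.12 (adjusted p = 1.6e-05). DCLK1, a kinase widely used as a tuft cell marker, fell in NCI-H526 (-0.55 ± 0.043), while its change in NCI-H1048 was 0.10 ± 0.11 (difference -0.65 ± 0.10). PLA2G4A, the cytosolic phospholipase that frees arachidonic acid, fell in both lines with a difference of -0.61 ± 0.14, and HPGD, which inactivates prostaglandins, had a difference of -0.72 ± 0.22 that was lost under 9 alternatives. PTGS1, the constitutive cyclooxygenase, could be tested in NCI-H526 alone, where it went from 33.6 and 35.6 CPM to 3.13 and 3.32 CPM; it was at 0.724 and 0.892 CPM in untreated NCI-H1048. TRPM5, the taste cation channel, went from 17 and 15.8 CPM to 2.07 and 2.24 CPM in NCI-H526 and was at or under 0.25 CPM in all NCI-H1048 libraries. Of 11 eicosanoid genes tested in both lines, 1 (9.09%, against 13.4% of all genes tested) was higher and 3 (27.3%, against 15.5%) lower.

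**Figure D2:**
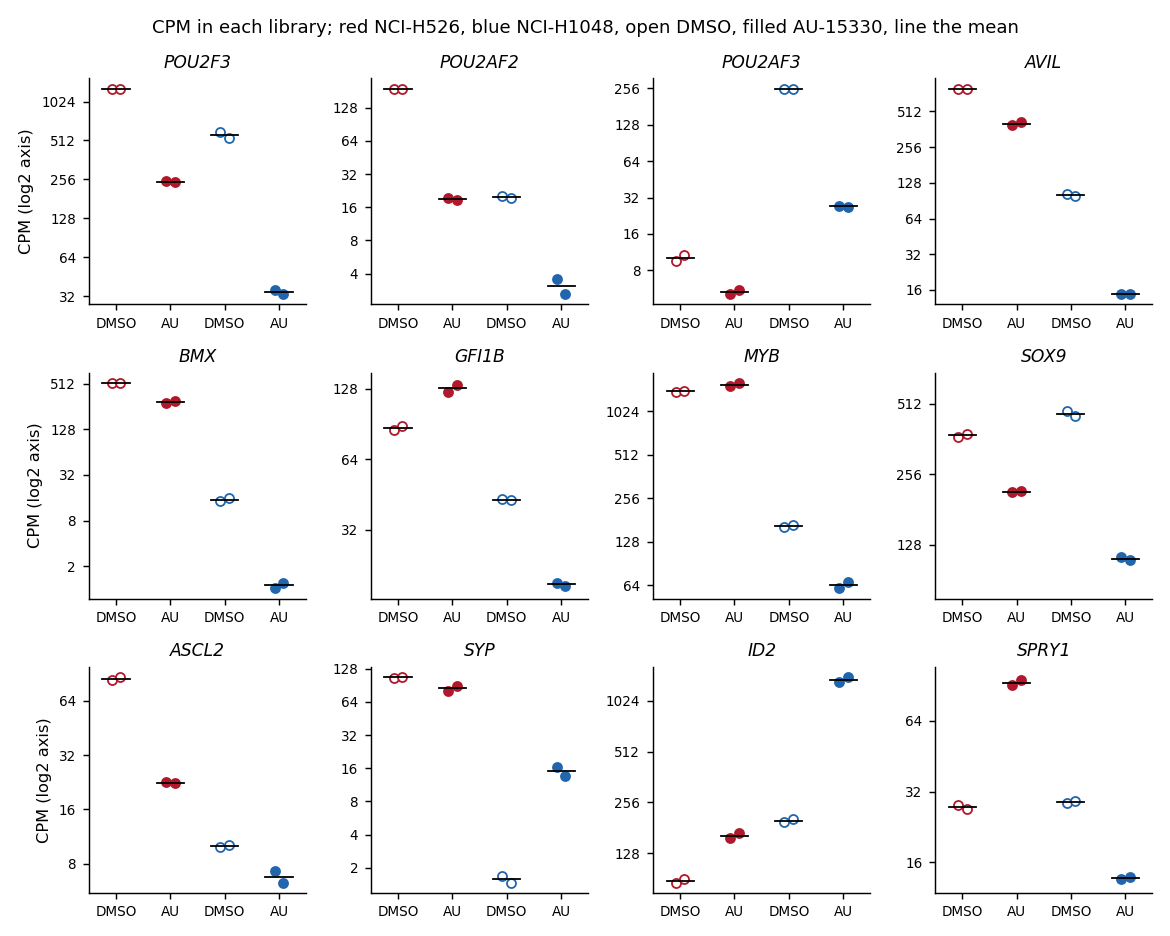
CPM of 12 genes in each of the 8 libraries, on log2 axes with a scale of their own per gene; points are single libraries, open for DMSO and filled for AU-15330 (AU), red for NCI-H526 and blue for NCI-H1048, and lines are means of 2. POU2F3, POU2AF3, AVIL and BMX drop further in NCI-H1048, POU2AF2 and ASCL2 drop further in NCI-H526, and GFI1B and SPRY1 rise in NCI-H526 and fall in NCI-H1048, and MYB falls in NCI-H1048.

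The BMX promoter window with an octamer is shown because BMX had the highest called difference on the tuft list and POU2F3 binds such letters. The RefSeq table (GRCh38.p14, 250 bases before to 50 after the start) lists it at chrX:15507058-15507357, plus strand, and the octamer ATGCAAAT is in capitals; a second BMX start in the table, at chrX:15500557-15500856, plus strand, holds none.
BMX: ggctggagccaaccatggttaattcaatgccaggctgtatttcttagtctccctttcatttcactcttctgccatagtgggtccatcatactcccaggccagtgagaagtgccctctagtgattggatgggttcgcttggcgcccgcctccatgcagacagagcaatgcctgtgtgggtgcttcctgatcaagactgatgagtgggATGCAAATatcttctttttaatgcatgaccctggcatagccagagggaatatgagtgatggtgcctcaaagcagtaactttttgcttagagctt
The octamer was searched on both strands. It stood in 198 of the 9849 tested genes with a window (2.01%), in 4 of the 28 tuft genes with one (14.3%), in 7 of 213 genes with a difference at least 2-fold higher in NCI-H526 (3.29%) and in 14 of 239 at least 2-fold lower (5.86%). The windows of AVIL, GFI1B and MYB, also named from the tuft list, held no octamer. The shares describe letters in a short window and not binding.

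The genes that changed in opposite directions included adhesion, signalling and neuronal genes. CTNNA2, the neuronal alpha-catenin that ties cadherins to actin, measured 23.7 and 23.6 CPM with DMSO and 50.7 and 54.6 CPM with AU-15330 in NCI-H526, and 22.6 and 25 CPM with DMSO and 3.46 and 3.75 CPM with AU-15330 in NCI-H1048. The DMSO values of the lines overlapped and the treated levels lay on either side of them, a difference of 3.70 ± 0.13 or 13-fold (adjusted p = 2.2e-08). KCTD12, an auxiliary subunit of GABA-B receptors, went from 48.1 and 47.8 CPM to 113 and 117 CPM in NCI-H526 and from 30.8 and 32 CPM to 7.74 and 8.79 CPM in NCI-H1048, with a difference of 3.12 ± 0.11. ELF3, an ETS factor of differentiated epithelium, went from 79.6 and 79.8 CPM to 109 and 109 CPM in NCI-H526 and from 29.4 and 27.7 CPM to 5.09 and 4.33 CPM in NCI-H1048 and differed by 2.94 ± 0.12. POU3F2, the neural POU-domain factor also called BRN2, measured 28.8 and 31.3 CPM with DMSO and 62.5 and 64.3 CPM with AU-15330 in NCI-H526, and 43.6 and 41.8 CPM with DMSO and 26.1 and 21.9 CPM with AU-15330 in NCI-H1048; it rose above the untreated NCI-H1048 level in NCI-H526 and dropped below the untreated NCI-H526 level in NCI-H1048 (difference 1.89 ± 0.13). PLD1, a phospholipase D, and ARHGEF28, a guanine nucleotide exchange factor, rose in NCI-H526 by 2.00 ± 0.06 and 1.51 ± 0.093 and fell in NCI-H1048, with log2 changes of -0.44 ± 0.12 and -0.31 ± 0.11.

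On the other side, ASTN2, a neuronal membrane protein of glial-guided migration, went from 103 and 99.7 CPM to 33.9 and 33.7 CPM in NCI-H526 and from 11.7 and 10.8 CPM to 21 and 21.2 CPM in NCI-H1048, for a difference of -2.46 ± 0.10 (adjusted p = 7.9e-08). HS3ST3B1, a heparan sulfate sulfotransferase, measured 14.4 and 15.6 CPM with DMSO and 7.48 and 7.41 CPM with AU-15330 in NCI-H526, and 34.1 and 32.7 CPM with DMSO and 79.1 and 73 CPM with AU-15330 in NCI-H1048 and differed by -2.14 ± 0.12. KAT2B, the histone acetyltransferase PCAF, fell in NCI-H526 (-1.31 ± 0.042) and rose in NCI-H1048 (0.40 ± 0.10). The same pattern held for WSCD1, for NRGN, a calmodulin-binding synaptic protein, for AMACR, a peroxisomal racemase, for ADAMTS3, a procollagen protease, and for CADM3, an adhesion molecule of neurons, with differences from -2.10 to -1.48. In each of these 8 genes both treated libraries lay outside the range of the DMSO pair in both lines. The genes were chosen as called in opposite directions, so this separation is no separate support.

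**Figure D3:**
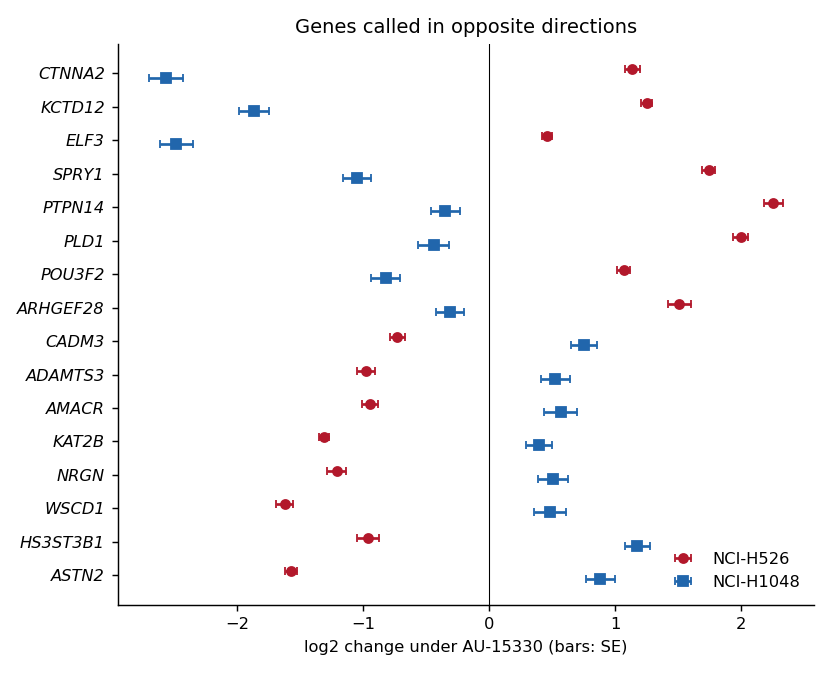
Log2 change under AU-15330 with its SE in NCI-H526 (circles) and NCI-H1048 (squares) for the 16 genes chosen as the highest and lowest differences among those called in opposite directions. The upper 8 genes rise in NCI-H526 and fall in NCI-H1048, and the lower 8 the reverse; the NCI-H1048 changes of PTPN14, PLD1 and ARHGEF28 are small, at -0.35, -0.44 and -0.31.

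The smaller changes behind the opposite directions depended on the processing. In NCI-H1048 the call of ARHGEF28 was lost under 7 alternatives (adjusted p from 0.067 to 0.25), including without either DMSO replicate or AU-15330 replicate 1 of that line. That of PTPN14 was lost under 6 (adjusted p from 0.064 to 0.27), including without DMSO replicate 1 or AU-15330 replicate 1, and that of PLD1 under 3 (adjusted p from 0.054 to 0.094), including without either DMSO replicate. KAT2B lost the NCI-H1048 call without either DMSO replicate of that line, WSCD1 and NRGN without DMSO replicate 2 and AMACR without DMSO replicate 1. The differences of these 7 genes passed the test under every alternative run.

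Other genes at either end of the range changed in 1 line or in the same direction in both. KCNN3, a small-conductance calcium-activated potassium channel, measured 69.2 and 69.6 CPM with DMSO and 5.22 and 5.52 CPM with AU-15330 in NCI-H526, and 12 and 11.8 CPM with DMSO and 8.99 and 10.7 CPM with AU-15330 in NCI-H1048, a fall that passed the test in NCI-H526. In NCI-H1048 its change of -0.27 ± 0.13 was not called, except without AU-15330 replicate 2 of that line and in the fit of all 16 libraries, and it had a difference of -3.31 ± 0.14 or 9.91-fold (adjusted p = 7.9e-08). COL27A1, a fibrillar collagen, fell in both lines and more in NCI-H526 (-3.31 ± 0.065 against -0.99 ± 0.12). PBXIP1, MYO15B, KIRREL1, a nephrin-related adhesion molecule, and FES, a cytoplasmic tyrosine kinase, fell in NCI-H526 by log2 changes from -3.04 to -1.73 and were not called in NCI-H1048, where KIRREL1 was called with the replicate block (0.23, adjusted p = 0.047) or without AU-15330 replicate 1 and PBXIP1 without AU-15330 replicate 2. At the other end, ST18, a zinc finger factor, fell with log2 changes of -1.64 ± 0.043 in NCI-H526 and -4.02 ± 0.13 in NCI-H1048, and TMPRSS3, a membrane serine protease, by -1.52 ± 0.038 and -3.69 ± 0.15. GALNT10, which starts mucin-type O-glycosylation, rose from 12.9 and 13.7 CPM to 79.9 and 80.8 CPM in NCI-H526 and from 34.8 and 35.9 CPM to 47.8 and 49.5 CPM in NCI-H1048, a difference of 2.10 ± 0.10. TRIM27 stood among the 10 highest differences (2.34 ± 0.61, adjusted p = 0.013), a call lost without a filter (adjusted p = 0.11) and without DMSO replicate 1 of NCI-H1048 (adjusted p = 0.052), with replicates of NCI-H526 at 41.7 and 17.3 CPM with DMSO and 13.4 and 37.2 CPM with AU-15330, so its value rests on NCI-H1048, where it fell from 30.6 and 28.6 CPM to 5.77 and 3.41 CPM.

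Ribosome biogenesis genes had higher differences, with more members rising than falling in NCI-H526 and more falling than rising in NCI-H1048. These genes make, modify and assemble ribosomal RNA, and many are known targets of MYC. All 54 on the list were tested; 39 (72.2%, against 13.4% of all genes tested) had a called difference higher in NCI-H526 and 1 (1.85%) lower. The median change was 0.14 in NCI-H526, where 30 rose (55.6%, against 29.8% of all genes tested) and 2 fell (3.7%, against 28.9%). It was -0.37 in NCI-H1048, where 1 rose (1.85%, against 17.4%) and 34 fell (63%, against 17%). Of the 54, 18 were called in opposite directions (33.3%, against 4.18%). The median difference was 0.58, and leaving out any 1 library gave 32 to 44 members higher. PUS7, a pseudouridine synthase, measured 103 and 105 CPM with DMSO and 109 and 108 CPM with AU-15330 in NCI-H526, and 43.6 and 40.9 CPM with DMSO and 20.0 and 19.5 CPM with AU-15330 in NCI-H1048. Its change of 0.066 ± 0.039 in NCI-H526 was not called and it fell 2.11-fold in NCI-H1048, a difference of 1.15 ± 0.093 (adjusted p = 7.8e-06). RRS1, a ribosome assembly factor, went from 57.5 and 55.4 CPM to 64.3 and 66.2 CPM in NCI-H526 and from 24 and 24.4 CPM to 13.2 and 12.3 CPM in NCI-H1048 (difference 1.11 ± 0.10). MYBBP1A, a nucleolar protein, and GNL3, nucleostemin, changed by -0.061 ± 0.043 and 0.10 ± 0.051 in NCI-H526, neither called except GNL3 under the other scalings, the replicate block or without AU-15330 replicate 1 (adjusted p from 1.7e-05 to 0.037), and by -1.06 ± 0.10 and -0.83 ± 0.095 in NCI-H1048.

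MYC and MYCN differed in level between the lines. MYC went from 189 and 177 CPM to 41.3 and 36.4 CPM in NCI-H1048 (log2 change -2.22 ± 0.10, limma adjusted p = 2.5e-12) and was near 0.5 CPM in NCI-H526, below the level tested there. In NCI-H526 MYCN measured 1622 and 1658 CPM with DMSO and 1231 and 1283 CPM with AU-15330, a change of -0.38 ± 0.052; in NCI-H1048 it went from 5.67 and 6.42 CPM to 4.88 and 5.15 CPM, and its difference was -0.14 ± 0.10, with a 95% interval from -0.36 to 0.083. MYCL differed by -0.43 ± 0.13 (adjusted p = 0.031), a call lost under 9 alternatives. Of the 12 MYC and MAX network genes tested, 2 were called higher (16.7%, against 13.4% of all genes tested) and 4 lower (33.3%, against 15.5%). Fewer were higher without any 1 library of NCI-H526 or any 1 DMSO library of NCI-H1048. Fewer were lower without DMSO replicate 2 or AU-15330 replicate 2 of NCI-H526 or DMSO replicate 2 of NCI-H1048. MXD3 and MXD4, MAX partners that repress MYC targets, fell in NCI-H526 (-0.26 ± 0.09 and -0.15 ± 0.05) and rose in NCI-H1048 (0.71 ± 0.10 and 0.41 ± 0.10), and MLXIP, a glucose-responsive MLX partner, did the reverse (0.33 ± 0.041 and -0.38 ± 0.12). The falls of MXD3 and MXD4 in NCI-H526 lost the call under 4 and 6 alternatives, scaling to the library total and leaving out DMSO replicate 2 of NCI-H526 among both, and MXD4 also without DMSO replicate 1 of NCI-H526. The NCI-H1048 changes of MXD4 and MLXIP lost it without DMSO replicate 1 of that line, and that of MXD4 also without DMSO replicate 2. The 51 cytosolic ribosomal protein genes, the products that the biogenesis factors assemble, had 0 calls in either direction by limma-trend and 0 by limma-voom, and at an unadjusted p under 0.05 they had 1 higher and 0 lower. Without AU-15330 replicate 2 of NCI-H1048 2 of them were called lower. Their median difference was -0.028, with median changes of 0.14 in NCI-H526 and 0.16 in NCI-H1048. In NCI-H526 26 were called as rising (51%, against 29.8% of all genes tested). In NCI-H1048, where replicates were farther apart, 7 were (13.7%, against 17.4%).

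The promoters of PUS7 and MYBBP1A are shown for the E-box CACGTG, the letters that MYC and MAX bind, which is in capitals. It stood in 21 of 46 ribosome biogenesis genes with a window (45.7%) and in 1263 of the 9849 tested genes with one (12.8%), against 12.2% of the genes at least 2-fold higher and 8.79% of those at least 2-fold lower in NCI-H526. The letters are their own reverse complement, so both strands are covered by 1 search. PUS7 is at chr7:105522222-105522521, minus strand, and MYBBP1A at chr17:4555335-4555634, minus strand, each printed along its own strand.
PUS7: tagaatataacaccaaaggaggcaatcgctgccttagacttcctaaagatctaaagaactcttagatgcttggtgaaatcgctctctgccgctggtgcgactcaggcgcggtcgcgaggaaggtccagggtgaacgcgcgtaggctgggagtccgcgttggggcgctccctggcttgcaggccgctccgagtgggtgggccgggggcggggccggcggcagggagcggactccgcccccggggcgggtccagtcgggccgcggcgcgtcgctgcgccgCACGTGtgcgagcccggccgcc
MYBBP1A: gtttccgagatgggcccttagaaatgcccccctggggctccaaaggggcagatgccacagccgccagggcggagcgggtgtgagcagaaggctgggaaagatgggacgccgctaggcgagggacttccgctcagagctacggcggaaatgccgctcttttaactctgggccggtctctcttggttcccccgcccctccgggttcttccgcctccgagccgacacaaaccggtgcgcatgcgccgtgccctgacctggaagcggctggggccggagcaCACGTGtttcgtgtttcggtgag
In both windows the E-box lies past the start, within the last 50 bases.

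Mitotic genes differed in the opposite direction. Of 48 G2 and M phase genes, 30 (62.5%, against 15.5% of all genes tested) had a called difference lower in NCI-H526 and 0 higher by limma-trend, by limma-voom or at an unadjusted p under 0.05, with a median of -0.38. The greater change was in NCI-H1048, where 41 of the 48 rose (85.4%, against 17.4% of all genes tested) and the median change was 0.40. In NCI-H526 15 rose (31.2%, against 29.8%), 12 fell (25%, against 28.9%) and the median was 0.0085. Leaving out any 1 library gave 20 to 37 members lower. NUSAP1, a spindle-associated protein, measured 167 and 171 CPM with DMSO and 166 and 171 CPM with AU-15330 in NCI-H526, and 237 and 249 CPM with DMSO and 386 and 376 CPM with AU-15330 in NCI-H1048. The NCI-H526 values overlapped between arms and the NCI-H1048 values did not, a difference of -0.65 ± 0.084 (adjusted p = 0.0002). KIF20A, a kinesin of cytokinesis, MYBL2, the B-MYB factor of the mitotic gene complex, and PBK, a mitotic kinase, fell slightly in NCI-H526 (-0.29 ± 0.04, -0.40 ± 0.042 and -0.22 ± 0.066) and rose in NCI-H1048 (0.33 ± 0.095, 0.30 ± 0.095 and 0.60 ± 0.10). The rises of KIF20A and MYBL2 lost the call without either DMSO replicate of NCI-H1048 (adjusted p from 0.051 to 0.23), and the fall of PBK without AU-15330 replicate 1 of NCI-H526 (adjusted p = 0.055).

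S phase genes leaned the same way with fewer calls, 15 of 45 lower (33.3%, against 15.5%) and 1 higher (2.22%, against 13.4%) at a median difference of -0.25. In NCI-H526 18 fell (40%, against 28.9% of all genes tested) and 6 rose (13.3%, against 29.8%). In NCI-H1048 1 fell (2.22%, against 17%) and 11 rose (24.4%, against 17.4%). The count lower was 7, 6 and 7 without DMSO replicate 1, DMSO replicate 2 or AU-15330 replicate 1 of NCI-H526, 24 without AU-15330 replicate 1 of NCI-H1048, and 9 without the variance trend. UHRF1, which recognises hemimethylated DNA after replication, fell from 117 and 119 CPM to 74.3 and 75.5 CPM in NCI-H526 and went from 144 and 135 CPM to 133 and 134 CPM in NCI-H1048 (difference -0.59 ± 0.087). GINS2, a subunit of the replicative helicase, E2F2 and CDT1, a licensing factor, fell in NCI-H526 with log2 changes of -0.60 ± 0.049, -0.61 ± 0.10 and -0.54 ± 0.054 and were not called in NCI-H1048, except CDT1 without AU-15330 replicate 2 of that line (0.26, adjusted p = 0.037).

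**Figure D4:**
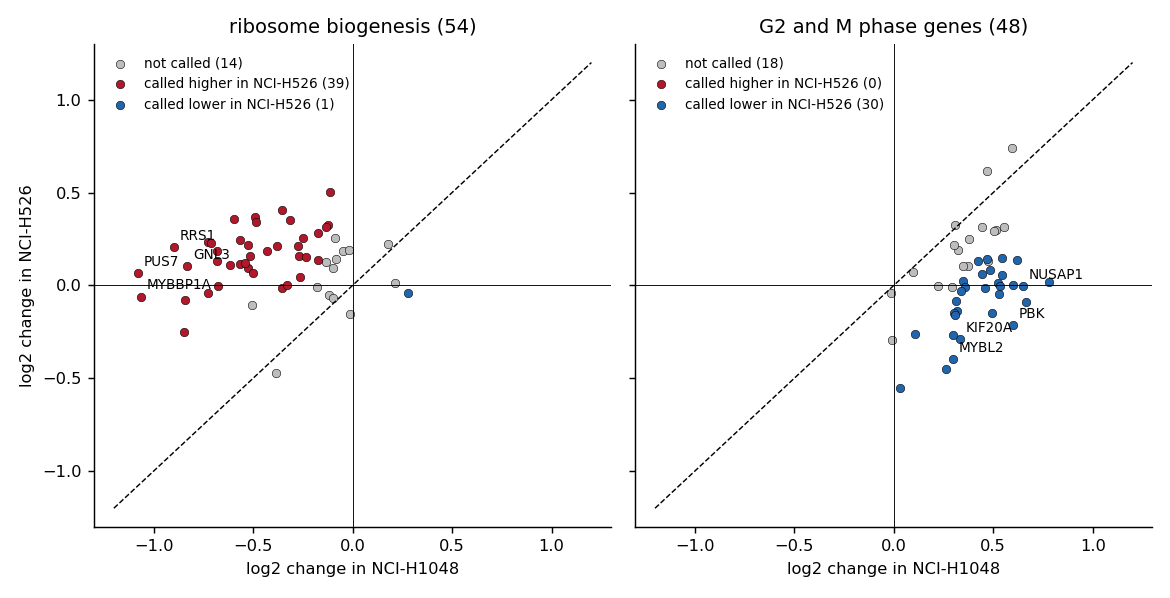
Log2 change in NCI-H1048 (horizontal axis) against NCI-H526 (vertical axis) for the 54 ribosome biogenesis genes (left) and the 48 G2 and M phase genes (right), coloured by the call of the response difference, with the dashed line marking equal change. The 39 ribosome biogenesis genes called higher in NCI-H526 lie to the left of the vertical axis or near it, and the 30 mitotic genes called lower lie to the right of it.

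NUSAP1 and KIF20A carry promoter letters known from cell cycle genes, the CHR element TTTGAA and the CCAAT box, which are in capitals where they occur on either strand, so that ATTGG and TTCAAA also count. CHR letters stood in 28 of 40 G2 and M phase genes with a window (70%) and in 13.6% of tested genes, and CCAAT letters in 33 of 40 (82.5%) and 44%, while S phase genes held them in 2.63% and 57.9%. NUSAP1 is at chr15:41332631-41332930, plus strand, with a CHR and 3 CCAAT matches, and KIF20A at chr5:138178862-138179161, plus strand, with 2 CCAAT matches and no CHR letters in this window. The window of MYBL2, also named from the G2 and M phase list, held neither.
NUSAP1: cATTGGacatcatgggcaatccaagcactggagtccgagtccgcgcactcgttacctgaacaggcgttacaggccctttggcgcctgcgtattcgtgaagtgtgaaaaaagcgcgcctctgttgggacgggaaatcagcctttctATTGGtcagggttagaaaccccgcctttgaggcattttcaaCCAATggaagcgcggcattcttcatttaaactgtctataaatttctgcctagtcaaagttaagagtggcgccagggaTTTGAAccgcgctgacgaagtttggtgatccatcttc
KIF20A: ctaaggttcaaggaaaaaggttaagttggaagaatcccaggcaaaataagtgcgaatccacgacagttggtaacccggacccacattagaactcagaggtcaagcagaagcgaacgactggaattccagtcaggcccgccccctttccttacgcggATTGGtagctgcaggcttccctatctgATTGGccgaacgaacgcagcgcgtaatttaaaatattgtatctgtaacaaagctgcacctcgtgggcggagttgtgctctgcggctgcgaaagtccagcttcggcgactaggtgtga

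Most sterol synthesis genes also had lower differences. Of 25 tested, 15 (60%, against 15.5% of all genes tested) were called lower in NCI-H526 and 2 (8%, against 13.4%) higher, with a median difference of -0.36. In NCI-H1048 18 rose (72%, against 17.4%). In NCI-H526 13 rose (52%, against 29.8%) and 7 fell (28%, against 28.9%). Leaving out any 1 library gave 12 to 16 members lower and 1 to 3 higher. FDPS, farnesyl diphosphate synthase, went from 206 and 208 CPM to 211 and 217 CPM in NCI-H526 and from 299 and 315 CPM to 536 and 478 CPM in NCI-H1048, a difference of -0.68 ± 0.10 (adjusted p = 0.00037). MVD and MVK, enzymes of the mevalonate steps before it, rose in both lines and more in NCI-H1048, with differences of -0.78 ± 0.14 and -0.68 ± 0.14. ER folding genes had 9 of 31 members lower (29%) and 1 higher (3.23%), from 6 to 13 and from 0 to 2 with 1 library left out; the chaperone HSP90B1 fell in NCI-H526 (-0.47 ± 0.054) and had a change of 0.055 ± 0.094 in NCI-H1048, and CRELD2, a chaperone induced by ER stress, fell in NCI-H526 and rose in NCI-H1048 (difference -0.72 ± 0.12), the rise losing its call without either DMSO replicate of that line (adjusted p = 0.11 and 0.14).

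Interferon and antigen presentation genes had more lower than higher differences. Of 50 interferon-stimulated genes 29 were tested in both lines and 13 in NCI-H1048 only; 10 of the 29 (34.5%) had a difference called lower and 2 (6.9%) higher, with 18 falling in NCI-H526 (62.1%, against 28.9% of all genes tested) and 9 in NCI-H1048 (31%, against 17%). With 1 library left out the counts were 8 to 12 lower and 0 to 4 higher, the 0 without DMSO replicate 2 or AU-15330 replicate 2 of NCI-H526 or either DMSO replicate of NCI-H1048, and the 4 without AU-15330 replicate 2 of NCI-H1048. IRF1, a transcription factor of the interferon response, measured 8.66 and 8.78 CPM with DMSO and 2.11 and 1.71 CPM with AU-15330 in NCI-H526, and 7.76 and 7.87 CPM with DMSO and 8.42 and 8.47 CPM with AU-15330 in NCI-H1048; the arms were far apart in NCI-H526 and close in NCI-H1048 (difference -2.05 ± 0.17, adjusted p = 9.9e-06). UBE2L6, the conjugating enzyme for ISG15, went from 11.1 and 12.2 CPM to 4.73 and 4.99 CPM in NCI-H526 and from 51.2 and 53.4 CPM to 62.2 and 58.4 CPM in NCI-H1048 (difference -1.38 ± 0.12), and RIGI, the sensor of viral RNA, and PARP9 differed by -0.70 ± 0.12 and -0.64 ± 0.11. Of the 17 antigen presentation genes tested, 13 fell in NCI-H526 (76.5%, against 28.9% of all genes tested) and 2 in NCI-H1048 (11.8%, against 17%). A lower difference was called in 7 (41.2%, against 15.5%) and a higher one in 1 (5.88%, against 13.4%). The count lower dropped without DMSO replicate 1 or AU-15330 replicate 1 of NCI-H526. ERAP2, a peptidase that trims antigens, fell from 21.8 and 21.5 CPM to 6.41 and 6.91 CPM in NCI-H526 and had 36.5 and 36.8 CPM with DMSO and 30.9 and 30.0 CPM with AU-15330 in NCI-H1048, a difference of -1.37 ± 0.11. CD74, the invariant chain, fell more in NCI-H1048 (-0.80 ± 0.11 against -1.95 ± 0.16). RELB and NFKB2, of the non-canonical NF-kB pair, had differences of -0.99 ± 0.22 and -1.08 ± 0.15: RELB rose in NCI-H1048 and NFKB2 rose there and fell in NCI-H526. The NF-kB list had 4 of 19 lower (21.1%) and 1 higher (5.26%), with 4 higher without AU-15330 replicate 2 and 2 without DMSO replicate 1 of NCI-H1048.

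Neuroendocrine and neuronal genes had more lower than higher differences. SYP, the synaptic vesicle protein synaptophysin, measured 106 and 107 CPM with DMSO and 80.5 and 89.7 CPM with AU-15330 in NCI-H526, and 1.7 and 1.47 CPM with DMSO and 16.5 and 13.7 CPM with AU-15330 in NCI-H1048. It fell slightly in NCI-H526 and rose 7.46-fold in NCI-H1048 from a low level, and its difference was -3.23 ± 0.14 (adjusted p = 1.1e-07). CHGB, chromogranin B, rose in both (0.57 ± 0.041 and 1.53 ± 0.25), in NCI-H1048 from 0.351 and 0.358 CPM. There CHGB reached the mean of 1 CPM needed for testing only through its treated libraries (1.76 and 2.19 CPM). Its entry thus depended on the rise. INSM1, a neuroendocrine factor, fell in both (-0.52 ± 0.041 and -1.13 ± 0.16). Of 29 neuroendocrine genes 11 were tested in both lines and another 11 in NCI-H526 only, and 5 of the 11 tested in both (45.5%) were called lower and 1 (9.09%) higher; the count lower was 3 without any 1 of the NCI-H526 DMSO replicates, AU-15330 replicate 2 of NCI-H526 or any 1 of the NCI-H1048 DMSO replicates. Synaptic and axon guidance genes had 13 of 38 lower (34.2%) and 4 higher (10.5%), and 8 lower without DMSO replicate 1 or 2 of NCI-H526 or DMSO replicate 2 of NCI-H1048. SYT11, a synaptotagmin, had a change of -0.16 ± 0.041 in NCI-H526, a call lost without DMSO replicate 2 of that line (adjusted p = 0.13), and rose from 2.37 and 2.29 CPM to 8.94 and 10.4 CPM in NCI-H1048, and NRP1, a semaphorin receptor, fell in NCI-H526 (-1.02 ± 0.069) with a change of -0.17 ± 0.11 in NCI-H1048.

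Cadherins and protocadherins had 4 of 12 tested members lower (33.3%, against 15.5% of all genes tested) and 2 higher (16.7%, near the 13.4% of all genes tested). Fewer were higher without any 1 library other than AU-15330 replicate 2 of NCI-H1048, and more without that library. DCHS1, a large cadherin of planar polarity, fell in NCI-H526 (-1.58 ± 0.091) and less in NCI-H1048 (-0.34 ± 0.10), where the call was lost without DMSO replicate 1 (adjusted p = 0.29). CDH22 went from 2.89 and 3.1 CPM to 0.125 and 0.17 CPM in NCI-H526 and from 99.2 and 93.7 CPM to 6.01 and 5.4 CPM in NCI-H1048. Its difference of 1.53 ± 0.17 on the log2(value + 0.5) scale rests on treated NCI-H526 values near 0 and turned to -0.14 with limma-voom.

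Keratins and epithelial markers had calls in both directions. KRT8 and KRT18, the keratin pair of simple epithelium, rose in NCI-H526 (0.37 ± 0.039 and 0.41 ± 0.039) and fell in NCI-H1048 (-1.02 ± 0.11 and -0.51 ± 0.10). KRT8 measured 278 and 280.3 CPM with DMSO and 355 and 367 CPM with AU-15330 in NCI-H526, and 42.1 and 40.7 CPM with DMSO and 20.4 and 20.0 CPM with AU-15330 in NCI-H1048, and its difference was 1.39 ± 0.086 (adjusted p = 1.2e-06). CLDN4, a tight junction claudin, fell in both lines and to under 1 CPM in NCI-H1048 (difference 1.80 ± 0.15). On the list of 49 keratins and epithelial or mesenchymal markers, 31 were tested; 11 (35.5%) were higher and 7 (22.6%) lower, and 4 lower without DMSO replicate 1 or 2 of NCI-H526 or DMSO replicate 2 of NCI-H1048.

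A matrix gene had the highest difference among all called genes. THBS1, thrombospondin 1, measured 2.96 and 2.55 CPM with DMSO and 63.5 and 59.3 CPM with AU-15330 in NCI-H526, and 2.7 and 3.1 CPM with DMSO and 1.59 and 1.65 CPM with AU-15330 in NCI-H1048. It rose 19-fold in NCI-H526 from a level close to that of NCI-H1048, where its change was -0.68 ± 0.20, a call lost without either DMSO replicate of that line (adjusted p = 0.07 and 0.18), for a difference of 4.93 ± 0.18 (adjusted p = 2.2e-08). FBN2, fibrillin 2, rose in NCI-H526 from about 0.5 CPM and fell in NCI-H1048 (2.14 ± 0.18 and -0.97 ± 0.11). With DMSO values under 1 CPM in NCI-H526, FBN2 entered the test only through the treated libraries of that line. ITGA1, an integrin alpha chain, fell in NCI-H526 and rose in NCI-H1048 (-0.73 ± 0.12 and 0.63 ± 0.11). Of 35 matrix and integrin genes tested, 8 (22.9%, against 13.4% of all genes tested) were higher and 5 (14.3%, near the 15.5% of all genes tested) lower. The count higher was 4 without DMSO replicate 1 or AU-15330 replicate 2 of NCI-H526 or DMSO replicate 2 of NCI-H1048, and 5 without DMSO replicate 1 of NCI-H1048, and the count lower was 9 without AU-15330 replicate 1 of NCI-H1048.

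Feedback genes of growth factor pathways did not move as a block. SPRY1 and SPRY2, paralogous inhibitors of receptor kinase signalling to ERK, had differences of opposite sign. SPRY1 measured 28.2 and 27 CPM with DMSO and 91.3 and 95.3 CPM with AU-15330 in NCI-H526, and 28.6 and 29.1 CPM with DMSO and 13.5 and 13.8 CPM with AU-15330 in NCI-H1048, rising in NCI-H526 and falling in NCI-H1048 from similar DMSO levels (difference 2.79 ± 0.10, adjusted p = 2.2e-08). SPRY2 fell in both lines and more in NCI-H526, from 21.1 and 20.8 CPM to 5.58 and 5.33 CPM in NCI-H526 and from 15.9 and 17.2 CPM to 11.9 and 12.5 CPM in NCI-H1048 (difference -1.43 ± 0.13); its fall in NCI-H1048 lost the call without either DMSO replicate of that line (adjusted p = 0.069 and 0.18). ERRFI1, an inhibitor of the EGF receptor, rose in NCI-H526 (1.07 ± 0.059), and its change in NCI-H1048 was -0.34 ± 0.13, a call lost under 8 alternatives (adjusted p from 0.052 to 0.48), including without either DMSO replicate or AU-15330 replicate 1 of that line. Of 20 ERK feedback genes, 6 (30%, against 13.4% of all genes tested) were higher and 3 (15%, near the 15.5% of all genes tested) lower. Fewer were lower without DMSO replicate 2 or AU-15330 replicate 2 of NCI-H526 or DMSO replicate 1 of NCI-H1048. Among receptor kinases, 10 of 32 tested (31.2%) were higher and 9 (28.1%) lower; the ephrin receptors EPHB1, EPHA4 and EPHA7 and the collagen receptor DDR2 fell in NCI-H1048 by log2 changes of -2.41 ± 0.16, -1.40 ± 0.12, -0.97 ± 0.12 and -1.64 ± 0.15, of which EPHA4 also fell (-0.30 ± 0.069) in NCI-H526 and EPHA7 had a change of 0.17 ± 0.054 there, a call lost without either DMSO replicate of NCI-H526 (adjusted p = 0.11 and 0.091). TYRO3, a receptor for GAS6, fell in NCI-H526 (-0.88 ± 0.10).

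ID2 had the lowest difference on the list of BMP and TGF-beta genes. It encodes a dominant-negative partner of basic helix-loop-helix factors and measured 85.8 and 90.1 CPM with DMSO and 156 and 168 CPM with AU-15330 in NCI-H526, and 195 and 205 CPM with DMSO and 1319.7 and 1413 CPM with AU-15330 in NCI-H1048. It rose in both lines, 1.84-fold in NCI-H526 and 6.82-fold in NCI-H1048, for a difference of -1.89 ± 0.095 (adjusted p = 2.4e-07). ID4 followed in smaller measure (0.50 ± 0.047 and 1.33 ± 0.093), and ID1 rose in both, from 60.1 and 63.7 CPM to 212 and 226 CPM in NCI-H526 and from 65 and 64.1 CPM to 249 and 220.5 CPM in NCI-H1048, with a difference of -0.039 ± 0.10 and a 95% interval from -0.26 to 0.19. BMP2, a ligand of the pathway, went from 2.33 and 1.33 CPM to 2.54 and 3.2 CPM in NCI-H526, a change of 0.56 ± 0.21 at low level whose call was lost under 5 alternatives, DMSO replicate 2 or AU-15330 replicate 2 of that line left out among them (adjusted p from 0.089 to 0.35), and fell in NCI-H1048 (-1.49 ± 0.12). LTBP1, which anchors latent TGF-beta, rose in NCI-H526 from under 0.5 CPM (2.07 ± 0.17) and stayed at 65.5 to 74.6 CPM in all NCI-H1048 libraries. In NCI-H526 it entered the test only through the treated libraries, so its entry depended on the rise. The list as a whole had 8 of 30 higher (26.7%) and 6 lower (20%).

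YAP-related and immediate early genes were mixed. PTPN14, a phosphatase that restrains YAP, rose from 20.5 and 17.3 CPM to 94.6 and 89.3 CPM in NCI-H526, and its change in NCI-H1048 was -0.35 ± 0.12, where the treated libraries, at 98.6 and 130.3 CPM, spread widely (difference 2.61 ± 0.17, adjusted p = 1.8e-06). CRIM1 and ARHGEF17 fell in NCI-H1048 with changes of -0.94 ± 0.11 and -1.09 ± 0.12, and AJUBA, a LIM protein, fell more in NCI-H526 (difference -0.79 ± 0.14). Of 17 tested members 6 were higher (35.3%, against 13.4% of all genes tested) and 3 lower (17.6%, against 15.5%). In NCI-H1048 10 fell (58.8%, against 17%), and in NCI-H526 6 fell (35.3%, against 28.9%). Another 10 of the 30 YAP list genes were tested in NCI-H1048 only. JUN fell in NCI-H526, from 43 and 43.4 CPM to 20.1 and 20.0 CPM, and had 17 and 15.2 CPM with DMSO and 19.3 and 19.5 CPM with AU-15330 in NCI-H1048 (difference -1.35 ± 0.11), whereas KLF4, a zinc finger factor of differentiated epithelium, rose in NCI-H526 and fell in NCI-H1048 (difference 1.45 ± 0.12) and FOSL2 fell in NCI-H1048 (-0.92 ± 0.11). Of 22 AP-1 and immediate early genes, 7 (31.8%, against 13.4% of all genes tested) were higher and 4 (18.2%, against 15.5%) lower. The count lower was 1 without DMSO replicate 2 of NCI-H526 and 2 without either AU-15330 replicate of NCI-H526 or either DMSO replicate of NCI-H1048.

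The remaining lists had calls in both directions. Glycolysis and hypoxia genes had 11 of 38 higher (28.9%) and 8 lower (21.1%), the count lower being 4 or 5 without any 1 library of NCI-H526 or any 1 DMSO library of NCI-H1048, and 5 after scaling to the library total. HK2, hexokinase 2, fell in NCI-H1048, from 31.3 and 31.4 CPM to 9.44 and 9.75 CPM, with 15.2 and 16 CPM with DMSO and 12.8 and 15.2 CPM with AU-15330 in NCI-H526 (difference 1.50 ± 0.14), and VEGFA fell in both and more in NCI-H1048 (0.91 ± 0.11). ATF4 targets had 10 of 39 higher (25.6%, against 13.4% of all genes tested) and 5 lower (12.8%, against 15.5%), with more lower without AU-15330 replicate 2 of NCI-H1048. ATF5 fell in NCI-H526 (-1.59 ± 0.061) and CEBPB fell in NCI-H1048 (-0.78 ± 0.12). Of 28 Notch genes tested, 6 were higher (21.4%) and 8 lower (28.6%), and of 28 Wnt genes 3 were higher (10.7%) and 7 lower (25%), against 13.4% and 15.5% of all genes tested, among them the Notch ligands JAG1 (0.90 ± 0.12) and DLL1 (-0.94 ± 0.16), the Notch-related factor HES6 (-0.75 ± 0.13) and the ligand WNT7B (-1.48 ± 0.22). The Wnt count lower was 4 without any 1 library of NCI-H526 or DMSO replicate 2 of NCI-H1048 and 12 without AU-15330 replicate 2 of NCI-H1048, with 7 higher then. Genes of the p53 and CDK inhibitor list had 6 of 31 higher (19.4%, against 13.4%) and 7 lower (22.6%, against 15.5%). Fewer were higher without any 1 DMSO library, AU-15330 replicate 2 of NCI-H526 or AU-15330 replicate 1 of NCI-H1048. CDKN1A, the p21 inhibitor, fell more in NCI-H1048 (-0.70 ± 0.053 and -1.37 ± 0.11). FDXR, a mitochondrial reductase and p53 target, rose in NCI-H1048 (1.49 ± 0.11) with a change of 0.16 ± 0.076 in NCI-H526.

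The mSWI/SNF genes had called shares below those of all genes tested on the 8 libraries. AU-15330 acts on the proteins, so RNA does not test the degradation. The differences of SMARCA2, SMARCA4 and PBRM1 were 0.17 ± 0.088, -0.17 ± 0.095 and 0.064 ± 0.12, with 95% intervals from -0.019 to 0.36, -0.38 to 0.034 and -0.20 to 0.33, and none passed the test on the 8 libraries; all 3 passed it, at 0.21, -0.24 and 0.21, without AU-15330 replicate 2 of NCI-H1048. Of 28 subunit genes tested, 2 (7.14%, against 13.4%) were higher and 3 (10.7%, against 15.5%) lower; without AU-15330 replicate 2 of NCI-H1048 there were 6 and 5, and without any 1 of the other libraries 2 higher and 0 to 2 lower, the 0 without any 1 library of NCI-H526 or DMSO replicate 2 of NCI-H1048. Calls over all genes tested also rose without AU-15330 replicate 2 of NCI-H1048 and fell without any 1 library of NCI-H526. The moving counts are therefore not read as a trait of the subunit genes. ARID2, a PBAF subunit, rose in NCI-H526, from 80.5 and 84.2 CPM to 149 and 147 CPM (difference 0.74 ± 0.13), and BCL11A rose there too (0.44 ± 0.055). Other chromatin regulators had 9 of 61 higher (14.8%, near the 13.4% of all genes tested) and 5 lower (8.2%, against 15.5%). Their counts ran from 4 higher without DMSO replicate 1 of NCI-H526 and 5 without DMSO replicate 1 of NCI-H1048 to 16 without AU-15330 replicate 2 of NCI-H1048, and the count lower was 2 or 3 without any 1 library of NCI-H526, 2 without DMSO replicate 2, 8 without AU-15330 replicate 1 and 10 without AU-15330 replicate 2 of NCI-H1048. CHD7 and CHD9, remodelers of the CHD family, differed by 0.76 ± 0.11 and 0.81 ± 0.15, and CBX2 and PCGF3, of Polycomb complexes, by -0.68 ± 0.086 and -0.60 ± 0.093. The respiratory chain had 0 of 48 higher by limma-trend, limma-voom or an unadjusted p under 0.05, and 2 lower (4.17%). The count lower rose strongly without AU-15330 replicate 2 of NCI-H1048. The BCL2 family had 1 of 18 (5.56%) in each direction. More of it was lower without AU-15330 replicate 2 of NCI-H526, AU-15330 replicate 1 or AU-15330 replicate 2 of NCI-H1048. BCL2L11, the pro-apoptotic BIM, rose in NCI-H526 (0.32 ± 0.043) and fell in NCI-H1048 (-0.55 ± 0.10). PMAIP1, NOXA, had a lower difference (-0.65 ± 0.15) that lost its call in the fit of all 16 libraries (limma adjusted p = 0.25).

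**Figure D5:**
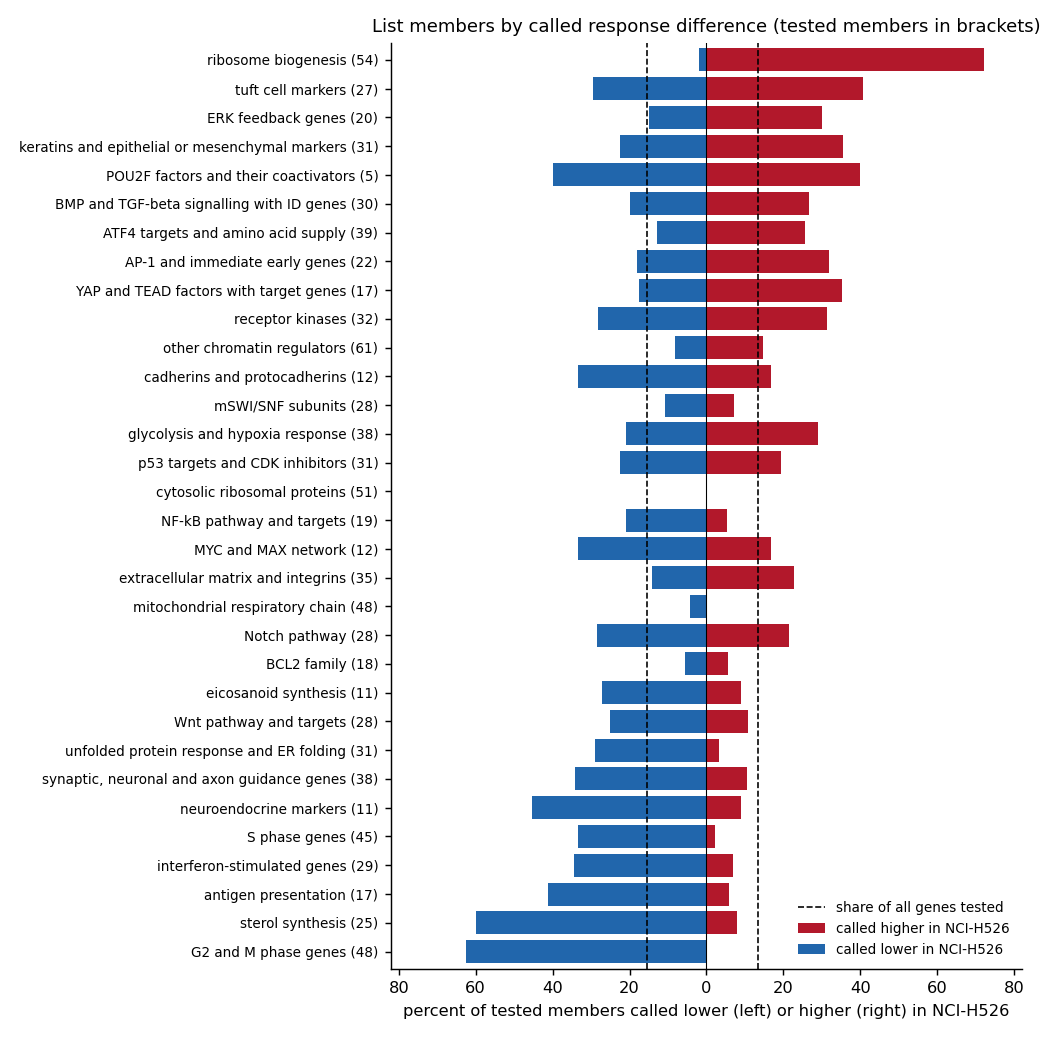
Percent of the tested members of each list called higher (right, red) or lower (left, blue) in NCI-H526, ordered by the median difference, with tested members in brackets and dashed lines at the share of all genes tested (13.4% higher, 15.5% lower). Ribosome biogenesis reaches 72.2% higher at the top, G2 and M phase genes 62.5% lower and sterol synthesis 60% lower at the bottom, and cytosolic ribosomal proteins have no bar.

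A shared response was also measured. Of the 3049 genes called in both lines, 2521 changed in the same direction, 1236 up and 1285 down. For 1250 of these 2521 the 95% interval of the difference lay within -0.5 to 0.5. Of all genes tested, 5574 (44.4%) had such an interval, so the count of 1250 is not read as a trait of genes called in both lines. RGS13, a regulator of G protein signalling found in tuft cells, fell from 136 and 146 CPM to 18 and 21.8 CPM in NCI-H526 and from 54.2 and 60.1 CPM to 6.72 and 7.51 CPM in NCI-H1048 (difference 0.12 ± 0.14, interval from -0.19 to 0.43). NREP fell from 462 and 472 CPM to 163 and 171 CPM in NCI-H526 and from 982 and 1017 CPM to 365 and 350.4 CPM in NCI-H1048 (interval from -0.19 to 0.19), and AZGP1, a secreted zinc-binding glycoprotein, CLSTN2, a calsyntenin, and ESPN, an actin bundler of microvilli, fell with differences from -0.079 to 0.12. BICRAL, a subunit of the non-canonical mSWI/SNF complex, rose from 23.7 and 24.7 CPM to 64.1 and 60.3 CPM in NCI-H526 and from 26.3 and 26.2 CPM to 55.1 and 66.1 CPM in NCI-H1048 (interval from -0.11 to 0.43), and GTDC1 and IQCE, a ciliary protein, rose with differences of 0.17 and 0.028. Without AU-15330 replicate 2 of NCI-H1048 the differences of BICRAL, CLSTN2 and ESPN passed the test, at 0.29, 0.34 and -0.30.

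Some genes could not enter the difference because 1 line hardly expressed them. In NCI-H526 only, the lowest changes were those of NUGGC, a GTPase of germinal centre B cells (from 255 and 248 CPM to 9.67 and 10.2 CPM), MUC13, a membrane mucin, SLC26A9, an epithelial chloride transporter, and SH2D7, an adaptor, at log2 changes from -4.60 to -3.84, and among the highest were ACKR3, a chemokine scavenger receptor (from 29.8 and 30.3 CPM to 97.8 and 104 CPM), BHLHE41 and SSTR1, a somatostatin receptor, from 1.73 to 1.41. In NCI-H1048 only, PLA2G4D, a phospholipase A2 (from 69.8 and 65.6 CPM to 3.57 and 3.34 CPM), KRT15, a basal keratin, RGS21, found in taste cells, and VTCN1, the B7-H4 ligand, fell, with log2 changes from -4.11 to -3.19, and LYPD1, CLUL1, PHOSPHO1 and WNT5A, a non-canonical Wnt ligand (from 17.3 and 16.9 CPM to 40.2 and 43.7 CPM), rose by 1.59 to 1.27. No difference was computed for these genes, since the other line's mean was under 1 CPM.

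The response difference was more frequent where the lines differed before treatment. Genes were classed by DMSO replicate 1 of each line and their change taken from the AU-15330 libraries and DMSO replicate 2, so that class and change shared no DMSO library. Of 402 genes at least 4-fold higher in untreated NCI-H526, 33.3% were called lower and 19.9% higher; of 634 at least 4-fold higher in NCI-H1048, 25.6% and 24.9%; and of 11508 within 4-fold, 14.3% and 12.5%. The median differences of these classes were -0.16, -0.035 and -0.031, and with the DMSO replicates swapped they were -0.072, 0.0052 and -0.018, so no direction is read from them. After that swap the first class held 438 genes, of which 32% were lower and 19.6% higher. The calls come from the fit of all 8 libraries, which include the DMSO libraries that set the classes, so the called shares are not independent of the classes. By the change that shared no DMSO library, 17.9% of the 402 genes had a log2 difference of -1 or lower and 5.72% of 1 or higher. These shares were 10.1% and 10.9% of the 634 genes, and 2.11% and 1.84% of the 11508. No share was tested between classes.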

How the data were processed

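RNA was selected for poly(A), made into libraries by the TruSeq protocol and sequenced paired-end; per the labels and the study's methods the authors trimmed adapters, pseudoaligned the reads with kallisto to hg38 and used edgeR and limma. Which annotation release was used, and how transcripts were joined into genes, is not given in the sources used here. Per gene and library, the deposited table holds 1 signal value, which the file names CPM; the values of a library add up to 0.979 to 1.04 times the total that CPM would have, and the scaling behind this is not stated in the labels or the methods. No column of per-sample values was left unused without a sample, and 27 symbols garbled into dates were recovered through their gene identifiers. Positions are from GENCODE release 44 and promoters from RefSeq (GRCh38.p14).

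Values were analysed as log2(value + 0.5), since the deposited values are not counts, with limma 3.58.1 (R 4.3.3; eBayes with a variance trend), and 1 fit of the group means of the 8 libraries gave the response difference; a fold is therefore on that scale and understates low genes. Genes with a mean of at least 1 in both lines entered, tests were two-sided, and calls were made at a Benjamini-Hochberg adjusted p under 0.05 over all genes tested. Changes within a line came from a fit of its 4 libraries alone and genes with a mean of at least 1 there, so that the difference of 2 such changes equals the tested difference and the errors do not. The script was tested on simulated data. The study calls the replicates of each group biological, without saying how the cultures were kept apart, and no 2 libraries were identical. The members, the 33 lists (1230 genes) and the tests were chosen with earlier results of these data known. Named were the genes of the study's main axis, the 10 highest and 10 lowest differences with a mean of at least 10 in each line, the 8 highest and 8 lowest called in opposite directions, the 4 highest and 4 lowest of those called in the same direction in both lines, the 4 members of each list with the lowest adjusted p, the 5 that rose and the 5 that fell most alike, and the 4 highest and 4 lowest of those tested in 1 line, 190 in all. Single sterol genes other than MVK, MVD and FDPS, and a few genes that the rule named, are not reported here. Alternatives changed the pseudocount (0.1, 1), the filter (a mean of 5, none), the scaling (median-ratio, quantile, library total), the variance model, the samples fitted (all 16, or 1 left out), the tool (limma-voom on values divided by the smallest step of the library) and the replicate block.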

Additional observations from a re-analysis of the deposited data

Results flagged for a closer look

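A test of the difference between the lines singled out 3623 genes, 601 of them with a difference of at least 2-fold and 524 called in opposite directions. The 16 genes named for opposite directions were each singled out by that test. Their differences were 3.70 for CTNNA2, 3.12 for KCTD12, 2.94 for ELF3, 2.79 for SPRY1, 2.61 for PTPN14, 2.44 for PLD1, 1.89 for POU3F2 and 1.82 for ARHGEF28 among those higher in NCI-H526. Among those lower they were -2.46 for ASTN2, -2.14 for HS3ST3B1, -2.10 for WSCD1, -1.72 for NRGN, -1.71 for KAT2B, -1.51 for AMACR, -1.50 for ADAMTS3 and -1.48 for CADM3, on the log2 scale.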

How the results depend on the processing

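Of the 153 named differences that passed the test, 138 did so with the same sign under every alternative run and 15 lost the call in at least 1; of the 15 that did not pass, 6 passed in at least 1. Of the 295 changes of named genes within a line that passed, 61 lost the call in at least 1 alternative, and 31 of the 62 others gained it. A filter at a mean of 5 left 339 differences of at least 2-fold (165 higher, 174 lower), and no filter gave 1069 (523 higher, 546 lower), with 213 genes in opposite directions and 2810 calls in NCI-H1048. Without a variance trend 337 genes were called in opposite directions. CDH22, near 0 CPM in treated NCI-H526, had a difference of 1.53 that turned to -0.14 with limma-voom. The uncalled change of TRIM27 in NCI-H526 (-0.26) ran from -0.98 to 0.46 with 1 library left out, turning to 0.36 and 0.46 without DMSO replicate 1 or AU-15330 replicate 1 of that line. With 1 library left out, the differences called ran from 2303 to 5433 (1093 to 2593 higher, 1192 to 2840 lower), those of at least 2-fold from 593 to 722 (278 to 352 higher, 291 to 370 lower), opposite directions from 239 to 971, calls in NCI-H526 from 6335 to 9079 and in NCI-H1048 from 2248 to 6503, named genes called from 146 to 158 and list members called from 280 to 484; a line left with 1 library in an arm assumes that it varies like the other groups. The cause of these changes was not tested. The same replicate number marks no shared culture or day in the labels, and deviations of same-numbered libraries correlated at 0.017 in NCI-H526 and 0.24 in NCI-H1048. Fitting line by replicate number as a replicate block gave 4121 calls (1900 higher, 2221 lower), 609 of at least 2-fold (297 higher, 312 lower), 734 in opposite directions, and 8602 and 5930 within the lines. The counts of list members under each alternative, and the untreated classes with swapped replicates, were added after seeing the data. Array weights were run for the difference and not within the lines. Low genes are limited by depth: 1 CPM stands for an estimated 31.5 to 43.0 reads per library.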

Other observations

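In NCI-H929, a myeloma line of the series whose libraries were also poly(A)-selected, the median log2 change under AU-15330 was -1.55 over the 54 ribosome biogenesis genes, -2.27 over the 45 S phase genes and -1.46 over the 48 G2 and M phase genes. In MM1.S, another myeloma line, whose libraries were made by ribosomal RNA depletion, the medians were -1.76, -1.55 and -0.30. These are descriptions of each line's own libraries, and no difference from the SCLC-P lines was tested.

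CYP1A1, an enzyme of the aryl hydrocarbon response, IL18R1, a cytokine receptor chain, and RPL21P16, a processed pseudogene, lay outside the rule for named genes and were singled out after their values were seen. CYP1A1 had a difference of -3.27 (adjusted p = 3.4e-06; log2 change -1.78 in NCI-H526 and 1.49 in NCI-H1048) at means of 2.00 and 4.58 CPM. IL18R1 had 3.23 (adjusted p = 2.5e-06; 1.71 and -1.51) at 1.14 and 11.9 CPM. RPL21P16 had the lowest difference of all genes tested, -4.45 ± 1.06 (SE; adjusted p = 0.0085), and as a pseudogene it shares sequence with its parent gene, so its value is uncertain.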
